A study of Mus musculus with 2 samples.

Results

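Integrins are adhesion receptors that stand in the cell membrane as a pair of 1 alpha chain and 1 beta chain, and a chain that lacks a partner is generally not carried to the surface. T cells use them to leave the blood, to hold on to epithelium and matrix, and, with the αv integrins, to release active TGF-beta from its latent complex. The data here are the transcript levels of 10 integrin chains, 5 alpha and 5 beta, in RNA of regulatory T cells (Tregs) from injured mouse kidney. The chains were chosen for these roles in T cells. They were found through the RefSeq accessions of the array's probes, and 14 of the 56605 non-control probes belonged to them, among 22911 genes with a name.

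The cells were Tregs sorted as CD45+CD3e+CD4+FoxP3-hCD2+, where hCD2 is a reporter of Foxp3 expression, and were taken from renal tissue at day 28 of cGN. Every animal sampled had received the cGN induction, so no group without injury is compared. This is an antibody-mediated injury started with anti-GBM antibodies (against the glomerular basement membrane), and the labels link its severity to the lot of antibody. One array was hybridised for lot M and 1 for lot I, so each lot has 1 array. The labels do not give the age, sex or strain of the mice, or how many were pooled for an array.

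The scanner files and the deposited value table assign the arrays to the lots in opposite ways. The arrays are therefore called array 2 (lot M by the scanner files, lot I by the value table) and array 1 (lot I by the scanner files, lot M by the value table). Each difference is the log2 value of array 2 less that of array 1. A level is the log2 ratio of the processed signal to the 75th percentile of its own array, so a probe with a level of 0 is as bright as that percentile. The ± beside a difference is the error that the scanner software assigned to the spots, without any variation between mice or hybridisations. It was almost the same for bright probes (0.204 each for Itgae, Itgb7 and Itgav), so it is not a spread measured on these spots. A difference within or past its error is a comparison with this assigned value only. With 1 array per lot there is no test, no p-value and no replicate check, and every difference describes these 2 arrays.

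The label of the cells was borne out by the lineage genes. All 9 of the 10 listed Treg and T cell markers that had a probe with a name, among them Foxp3 and Il2ra, were well above background on both arrays, and their summed linear level was 607 on array 2 and 601 on array 1. Genes of other kidney cells were present too. All 10 proximal tubule markers were measured on both arrays, with a summed level of 185.6 on array 2 and 89.2 on array 1, and 9 of them were 2-fold or more higher in array 2. All 11 distal nephron and collecting duct markers were measured and higher in array 2, with a summed level of 129.2 on array 2 and 96.3 on array 1 and a median difference of 0.42. All 12 macrophage and monocyte markers were measured as well, at a summed 33.9 on array 2 and 30.8 on array 1. Of the 8 neutrophil markers 5 were measured, at 71.3 on array 2 and 75.1 on array 1, mostly from Csf3r. Of the 9 CD8 T and NK cell markers 7 were measured, at 18.9 on array 2 and 16.2 on array 1, mostly from Cd8b1. Of the 8 dendritic cell markers 7 were measured, at 11.2 on array 2 and 10.4 on array 1, mostly from H2-Aa. In bulk RNA, fewer cells of a type and less RNA per cell cannot be told apart.

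All 10 integrin chains were detected. Each of their 14 probes was well above background on both arrays, as were 52.2% of all probes, and 60.0% of all named genes were measured on both. The dimmest of the 14, the second probe of Itga1, lay 2.32 above the detection floor on array 2 and 2.64 above it on array 1 (log2). The probes of one chain can differ widely in signal. Those of Itga4 were 5.82 apart on array 2 and 5.73 apart on array 1, and those of Itgb3 were 4.84 apart on array 2 and 4.97 apart on array 1. For this reason the levels of different chains are not ranked, and chains are compared by their differences between the arrays.

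**Figure D1:**
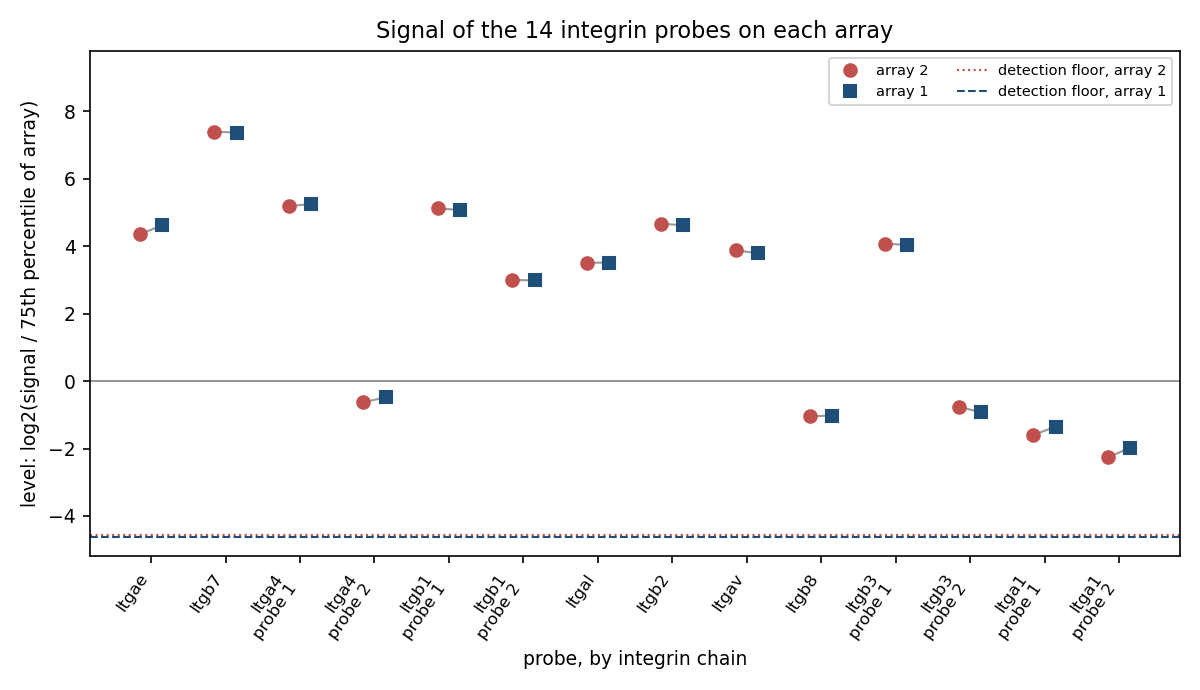
The level of each of the 14 integrin probes (log2 ratio of the signal to the 75th percentile of its array) on array 2 (circles, left) and array 1 (squares, right), with the detection floor of each array as a broken line. All 14 probes lie above both floors, and the arrays sit close together for every probe, with the widest gap at the second Itga1 probe (-0.28).

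Between the arrays no chain differed by 2-fold, or by 1.5-fold, in a comparison in which 1.43% of all measured genes reached 2-fold and 5.97% reached 1.5-fold. With so few genes past either limit, 0 of 10 is near the background and sets the chains apart from nothing. The differences ran from -0.27 to 0.09, with a median of 0.01 over the 10 chains and 0.01 over all 13743 measured genes. That median turned negative under scaling by the spike-in controls (-0.04), without scaling (-0.02) and with lowess centring (-0.02). Of the 10 chains, 5 were lower in array 2, where 46.2% of all genes were lower, and 5 were higher. Itgae and Itga1 had a difference larger than its scanner error, and the other 8 chains did not. Among all measured genes 28.6% had one, so 2 of 10 is also near the background. With normexp background correction, whose offset draws differences of dim probes toward 0, the difference of Itga1 was inside the main error (-0.150, error 0.152). With spike-in scaling that of Itga4 was larger than its error (-0.160, error 0.145).

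Split by the kind of chain, 4 of 5 alpha chains were lower in array 2 (median -0.11), where 46.2% of all genes were lower, and Itgav was the exception. Of the beta chains, 4 of 5 were higher in array 2 (median 0.03), where 53.8% of all genes were higher, and Itgb8 was the exception. Most of these differences lay within their error. The split was made outside the planned comparisons. The further alpha chains measured on both arrays, named here for this split, went both ways. Itga3 (0.18), Itga7 (0.19), Itga9 (3.08), Itga10 (0.15) and Itgax (0.05) were higher in array 2. Itga2 (-0.50), Itga6 (-0.01) and Itgam (-0.11) were lower. Spike-in scaling lowers every difference by 0.05, which puts Itgb1 and Itgb7 below 0 and leaves the gaps between chains as they are. Without scaling or with lowess centring Itgb7 alone turned negative.

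**Figure D2:**
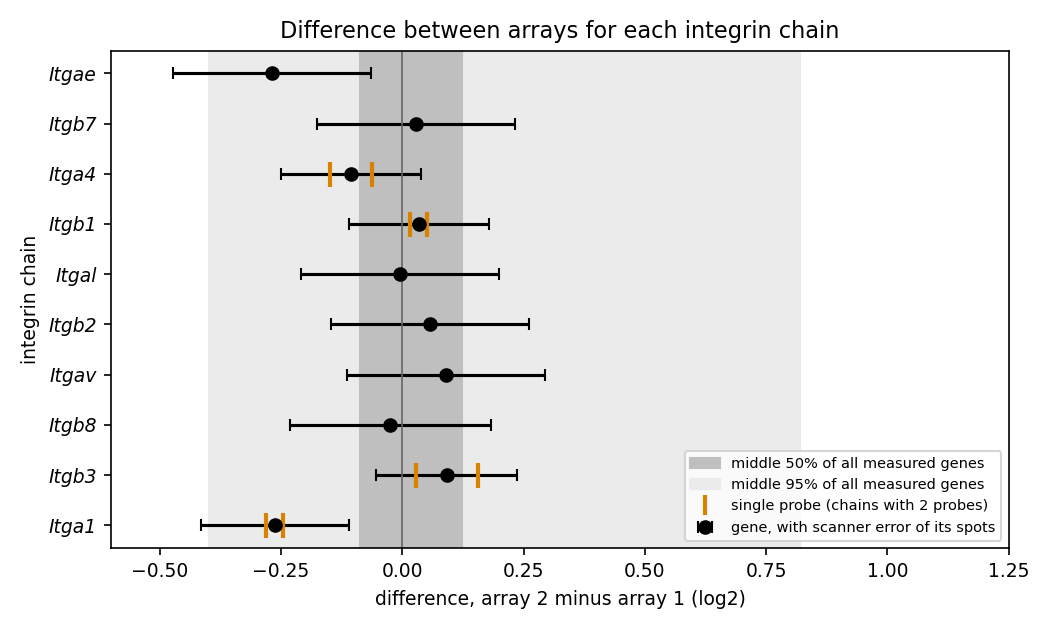
Difference between the arrays (array 2 minus array 1, log2) for each of the 10 chains, with the scanner error of its spots as bars and single probes as ticks where a chain has 2. The shaded bands hold the middle 50% and the middle 95% of all 13743 measured genes. Itgae (-0.27) and Itga1 (-0.26) lie to the left of the inner band and inside the outer one, as Itga4 lies just left of the inner band at -0.11.

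The chains of the epithelial and mucosal receptors come first. Itgae encodes αE (CD103), which pairs only with β7 and binds E-cadherin on epithelial cells, and it is a common marker of T cells kept in epithelial tissues. Its single probe stood at 4.36 on array 2 and at 4.62 on array 1. Before scaling the signal was 5726 on array 2 and 7044 on array 1. After scaling the transcript was 1.20-fold lower in array 2, a difference of -0.27 ± 0.20. A difference as large in either direction was found for 5.97% of the 7639 genes above the 75th percentile on both arrays and for 19.0% of all measured genes. One as low was found for 1.41% of those bright genes and 6.11% of all. On probes spotted at least 5 times, the difference varied between repeated spots with a median SD of 0.03 (277 probes above the 75th percentile). That spread leaves out labelling, hybridisation and mice, so it bounds only the error of reading a spot. The difference of Itgae stayed between -0.32 and -0.22 under 9 other ways of processing. Markers of CD8 T and NK cells (by level mostly Cd8b1) and of dendritic cells (mostly H2-Aa) were also measured in this RNA. The part of these cells in the Itgae signal was not tested.

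Itgb7 encodes β7, the only partner of αE and, with α4, a part of the gut homing receptor α4β7. It stood at 7.40 on array 2 and at 7.37 on array 1, and thus hardly a difference (0.03 ± 0.20). The sign of this value was negative under spike-in scaling, without scaling and with lowess centring, the lowest being -0.03. The pair Itgae and Itgb7 is compared by its gap. Itgae minus Itgb7 was -0.30 ± 0.29, a gap just over 1 error.

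Itga4 encodes α4, which pairs with β7 to bind Madcam1 on gut vessels and with β1 to bind Vcam1 and fibronectin. Its brighter probe stood at 5.19 on array 2 and at 5.25 on array 1, and its dimmer probe -0.63 on array 2 and -0.48 on array 1. Both probes were lower in array 2, by -0.06 and -0.15, and the gene's difference was -0.11 ± 0.15. This lay within its error, as did its gaps to the partner chains, -0.13 ± 0.25 to Itgb7 and -0.14 ± 0.20 to Itgb1.

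The chains of the matrix receptors followed. Itgb1 encodes β1, the shared partner of most collagen, laminin and fibronectin receptors. The level of its brighter probe was 5.13 on array 2 and 5.08 on array 1, and the level of the other was 3.002 on array 2 and 2.99 on array 1. The difference of the gene was 0.03 ± 0.14, and both probes were slightly higher in array 2. With spike-in scaling it was -0.02.

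Itga1 encodes α1 (CD49a), which pairs only with β1, binds collagens, above all type IV collagen of basement membranes, and is carried by some tissue-resident T cells. Both of its probes were dim. The first stood at -1.60 on array 2 and at -1.35 on array 1, and the second -2.26 on array 2 and -1.98 on array 1. The probes gave nearly the same difference, -0.25 and -0.28, and the gene was 1.20-fold lower in array 2 at -0.26 ± 0.15. Probes of one gene shared a sign in 65.9% of the 4001 genes with 2 measured probes, so agreement in sign alone is common. Among all measured genes 19.4% had a difference as large in either direction, and 6.30% had one as low. At these levels few probes were spotted repeatedly, and the 6 available varied with a median SD of 0.15. With normexp background correction the value was -0.150, just inside the error of 0.152 from the main processing. Normexp adds an offset of 50 before the log, beside processed signals of 58 to 112 for these probes. The offset by itself draws a difference toward 0, so this value and that error are not on a like scale. The gap to its partner was -0.30 ± 0.21 for Itga1 minus Itgb1, the largest of the 8 pairs in units of its error (1.42 errors). The gap of Itgae minus Itgb7 was of the same size (-0.30 ± 0.29). The error for Itga1 and Itgb1 is smaller because each has 2 probes, whose errors are treated as independent.

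Itga1 is also used by mesangial cells, fibroblasts and endothelium. Of the 9 fibroblast and mesangial markers, 4 were measured on both arrays, with a summed level of 7.90 on array 2 and 7.01 on array 1, and Pdgfrb and Itga8 failed the background criterion on both arrays. That sum is mostly Acta2, a smooth muscle actin gene (2.88 on array 2, 2.71 on array 1). The Acta2 level averages probes far apart in signal. Its brighter probe (6.03 on array 2, 6.01 on array 1) gave a difference of 0.02. The dimmer one (-0.26 on array 2, -0.59 on array 1) gave 0.32. Other single markers of the list were lower in array 2, with Dcn at -0.41 ± 0.28. Pdgfra and Ren1 were well above background on array 1 only, at least 2.36-fold and 1.24-fold lower in array 2. Of the 10 endothelial markers, 8 were measured, at 7.73 on array 2 and 7.86 on array 1, with Tek and Tie1 failing the criterion on both. The part of these cells in the signal of Itga1 was not tested.

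The leukocyte receptor LFA-1 consists of αL, encoded by Itgal, and β2, encoded by Itgb2, and holds T cells to Icam1 and Icam2 on vessels and on antigen-presenting cells. Itgal stood at 3.51 on array 2 and at 3.51 on array 1, a difference of -0.004 ± 0.20, the smallest of the 10 in size. Itgb2 stood at 4.67 on array 2 and at 4.62 on array 1, a difference of 0.06 ± 0.20. The gap of the pair was -0.06 ± 0.29, well within its error. The β2 chain is shared with the myeloid chains αM and αX. Itgam stood at 2.74 on array 2 and at 2.86 on array 1 from 1 of its 2 probes, and Itgax 0.68 on array 2 and 0.63 on array 1, also from 1 of 2. Both transcripts were thus present beside Itgb2 in this RNA, and their part in its level was not tested.

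The αv receptors bind the latency peptide that holds TGF-beta inactive. On Tregs, αvβ8 releases TGF-beta from the complex that the surface protein GARP, the product of Lrrc32, presents. Itgav, which encodes αv, stood at 3.88 on array 2 and at 3.79 on array 1 (difference 0.09 ± 0.20). Itgb8, which encodes the β8 partner, stood at -1.05 on array 2 and at -1.02 on array 1 (difference -0.02 ± 0.21). Its single probe lay 3.53 above the floor on array 2 and 3.60 above it on array 1. The gap of Itgav minus Itgb8 was 0.11 ± 0.29, within its error.

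Itgb3 encodes β3, which pairs with αv on many cells and with αIIb on platelets. Its brighter probe stood at 4.07 on array 2 and at 4.05 on array 1, and the dimmer one -0.77 on array 2 and -0.92 on array 1. The difference was 0.03 for the brighter probe and 0.16 for the dimmer one, and 0.09 ± 0.15 for the gene. Itgav and Itgb3 differed by almost the same amount, with a gap of -0.002 ± 0.25. Taking only the brightest probe of each gene, the gap was 0.06. Of the 9 platelet and megakaryocyte markers, Pf4 was measured on both arrays, at -0.13 on array 2 and at -0.67 on array 1. Itga2b, the αIIb chain, was well above background on array 2 only, with a bound of at least 1.11-fold higher there. Its measured difference was 0.35 ± 0.49, within its error. The markers Ppbp, Gp9, Gp1ba, Gp1bb and Treml1 failed the background criterion on both arrays, while both probes of Itgb3 met it on both.

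Itgav also pairs with β1, β5 and β6. The gap of Itgav minus Itgb1 was 0.06 ± 0.25. Over the 8 partner pairs, 2 had a gap larger than its error, Itgae with Itgb7 and Itga1 with Itgb1, and in both the alpha chain had the lower difference. The gap of Itgae with Itgb7 was inside its error of 0.289 with normexp background correction (-0.284) and with lowess centring (-0.280). Of single genes 28.6% had a difference larger than its error, so 2 of 8 is no more than a description of these pairs. The pairs share chains (Itgav stands in 3, Itgb1 in 3), so they are not independent of each other.

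**Figure D3:**
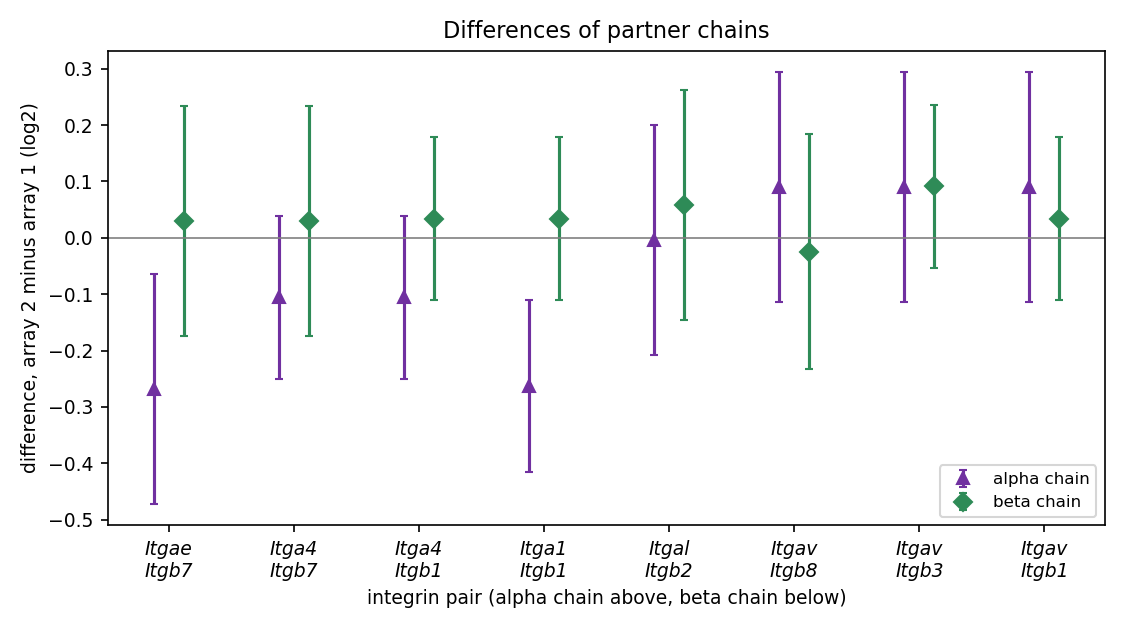
Difference between the arrays (array 2 minus array 1, log2) of the alpha chain (triangles) and the beta chain (diamonds) of each of the 8 pairs, with the scanner error of the spots as bars. The alpha chain lies 0.30 below its partner for Itgae with Itgb7 and for Itga1 with Itgb1, and Itgav and Itgb3 coincide.

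Among the other integrin chains of the mouse, 1 stood out by its size. Of 18 further chains and chain-like genes, 11 were measured on both arrays, near the 60.0% of all named genes. Of these, 8 were higher in array 2, where 53.8% of all genes were higher, and the median of the 11 differences was 0.18. The largest difference was that of Itga9, which encodes α9, a partner of β1. It stood at -0.31 on array 2 and at -3.40 on array 1, a difference of 3.08 ± 0.24, from 1 of its 2 probes, and the other probe failed the background criterion on both arrays. Itgb6, the β chain of the epithelial αvβ6 that also activates TGF-beta, stood at -1.54 on array 2 and at -2.22 on array 1 (difference 0.68 ± 0.22), again from 1 of 2 probes. Itgb5, another partner of αv, stood at 1.94 on array 2 and at 1.64 on array 1 (0.29 ± 0.20). Proximal tubule markers (summed 185.6 on array 2 and 89.2 on array 1) and distal nephron and collecting duct markers (129.2 on array 2 and 96.3 on array 1) were higher in the same array, and their part in the values of Itgb5 and Itgb6 was not tested. The differences of Itgav (0.09) and Itgb8 (-0.02) were nearer 0 than those of both.

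A collagen and a fibronectin receptor chain were lower in array 2. Itga2, the α2 collagen receptor chain, stood at -3.78 on array 2 and at -3.29 on array 1 (difference -0.50 ± 0.29), close to the floor. Itga5, the α5 fibronectin receptor chain, was well above background on array 1 only, with a difference of -0.54 ± 0.44. The chains Itga8, Itga11 and Itgad and the genes Itgb2l and Itgbl1 failed the background criterion on both arrays.

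Genes of integrin activation and of the adaptors inside the cell differed little between the arrays. Of the 26 listed, 24 were measured on both arrays. Their median difference was 0.02, with 15 higher and 9 lower in array 2, and none of them 2-fold. With spike-in scaling the median was -0.04. Over all named genes 60.0% were measured, and of the measured genes 53.8% were higher and 1.43% reached 2-fold. Talin and kindlin bind the tail of the beta chain to activate it. Their main leukocyte forms, Tln1 (0.01 ± 0.14) and Fermt3 (-0.01 ± 0.20), were picked for this role after their values were seen. The largest difference was that of Tln2, the other talin gene, at -1.70 on array 2 and at -2.26 on array 1 (0.57 ± 0.22). Ptk2, the focal adhesion kinase, differed by -0.30 ± 0.26. Fhl2, an adaptor that binds integrin tails, differed by 0.23 ± 0.20. Pxn, the adaptor paxillin, had a gene value of -0.27 ± 0.15, but its probes disagreed, with 0.13 for the brighter and -0.67 for the dimmer.

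Genes for integrin ligands were mostly higher in array 2. Of the 21 listed, 17 were measured on both arrays, 15 of them higher, where 53.8% of all genes were higher, and the median was 0.40. Most of these ligands are made mainly by epithelium, vessels, stroma or cells that make plasma proteins. Fgg, the fibrinogen gamma chain, stood at 1.06 on array 2 and at -0.29 on array 1 and was the only ligand gene 2-fold or more higher (1.35 ± 0.20). Col4a2, of type IV collagen, which α1β1 binds, differed by 0.80 ± 0.22. Thbs1, thrombospondin, which can also release TGF-beta, differed by 0.76 ± 0.21. Its brighter probe gave 0.39 and its dimmer one 1.13 ± 0.36, the latter at -4.53 on array 1, close to the floor. Vcam1, the ligand of α4β1, had a gene value of 0.57 ± 0.18 that rests on its dimmer probe (1.09), while its brighter probe gave 0.05. Cdh1, the E-cadherin that αE binds, was picked for this role and was at -0.32 on array 2 and -0.82 on array 1, a difference of 0.50 ± 0.21. Cdh1 and Itgae thus lay on opposite sides of 0. The ligands of LFA-1, picked in the same way, hardly differed, with -0.04 ± 0.20 for Icam1 and 0.01 ± 0.20 for Icam2. Madcam1, the ligand of α4β7, was at the detection floor, at -4.56 on array 2 and -4.35 on array 1. Col3a1 was well above background on array 2 only and at least 1.21-fold higher there. Cdh1 is itself one of the 11 distal nephron and collecting duct markers. The summed proximal tubule, distal nephron and macrophage markers were higher in array 2, while the endothelial sum was slightly lower (7.73 on array 2, 7.86 on array 1). Fibroblast and mesangial markers went both ways, as given above. The part of all these cells in the ligand values was not tested. Vtn, Tnc and Edil3 failed the background criterion on both arrays.

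Genes for the latency and release of TGF-beta had no common direction. Of the 21 listed, 18 were measured on both arrays, 9 higher and 9 lower in array 2, with a median of 0.01. Over all named genes 60.0% were measured, and of the measured genes 53.8% were higher and 46.2% lower. The genes that make up the substrate of αvβ8 on a Treg were picked for that role. Tgfb1 stood at 1.64 on array 2 and at 1.66 on array 1 (difference -0.02 ± 0.14), and Lrrc32 3.84 on array 2 and 4.005 on array 1 (-0.16 ± 0.20). Both lay within their error, as Itgav and Itgb8 did. The largest difference was that of Tgfb3, another ligand gene, at -1.68 on array 2 and at -2.80 on array 1 (1.12 ± 0.22). The surface protease gene Mmp14 (0.74 ± 0.34) and Plau, the urokinase gene (0.59 ± 0.20), were higher in array 2, and the gelatinase gene Mmp9 was lower (-0.35 ± 0.14, both probes). Pcsk5, a proprotein convertase gene, was at least 2.24-fold higher in array 2 by 1 of its 3 probes. The other Pcsk5 probes failed the background criterion on both arrays. Tgfb2 was well above background on array 1 only, by 1 of its 2 probes, with a difference of -0.61 ± 0.41.

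Genes of tissue residence and egress differed by small amounts and in both directions. Of the 19 listed, 17 were measured, 7 higher and 10 lower in array 2, with a median of -0.04 and no gene at 2-fold. Over all named genes 60.0% were measured, and of the measured genes 46.2% were lower and 1.43% reached 2-fold. Cd69, which blocks the exit receptor S1pr1 and is used beside CD103 to recognise resident T cells, stood at 3.94 on array 2 and at 3.64 on array 1, a difference of 0.30 ± 0.20. Itgae, with -0.27, lay on the other side of 0. Cxcr6, a chemokine receptor of tissue T cells, stood at 6.58 on array 2 and at 6.88 on array 1, lower by both of its probes (-0.30 ± 0.14). Ccr9, the receptor of gut homing that acts together with α4β7, differed by -0.22 ± 0.20. Prdm1, which encodes the regulator Blimp-1, differed by 0.22 ± 0.20. The resident markers among these genes therefore did not share a direction, with Itgae, Itga1 and Cxcr6 lower and Cd69 and Prdm1 higher in array 2.

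**Figure D4:**
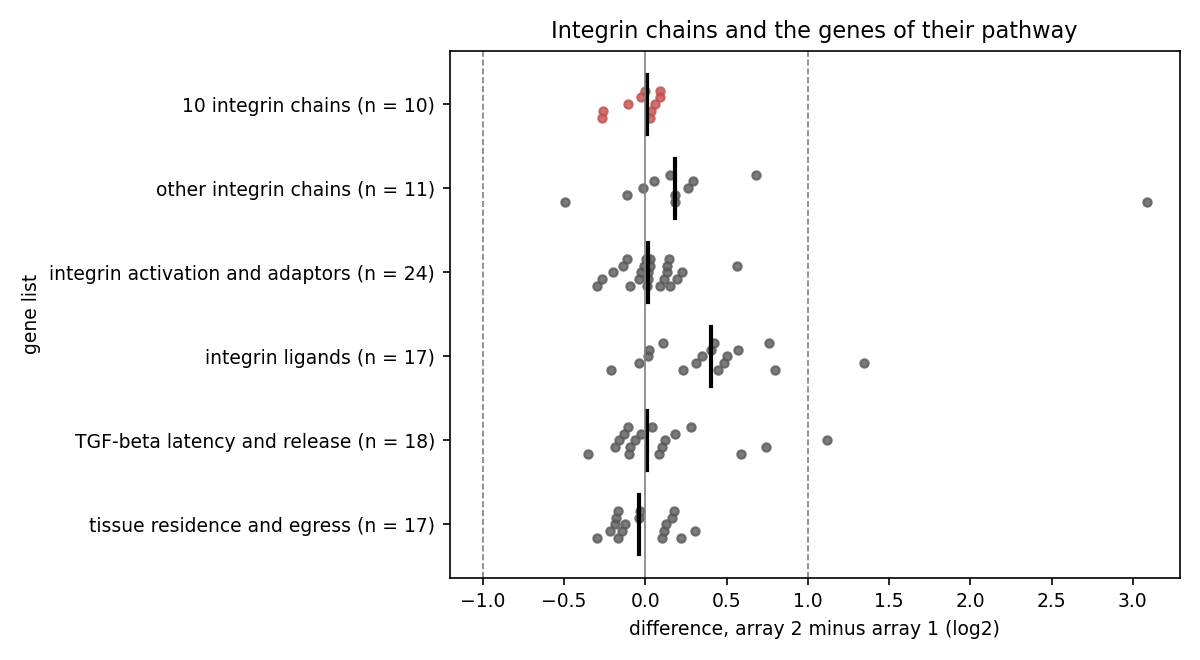
Differences between the arrays (array 2 minus array 1, log2) for the 10 integrin chains and for the measured genes of 5 related lists, 1 point per gene, with the median of each list as a black bar and 2-fold as dashed lines. The 10 chains span -0.27 to 0.09 around a median of 0.01, the ligand genes centre on 0.40, and Itga9 stands alone at 3.08.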

How the data were processed

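Cy3-labelled total RNA was measured on 2 Agilent mouse arrays of 1 colour and quantified with Agilent Feature Extraction 10.7.1.1 per the submitters' processing notes. Per the file headers, the processed signal intensity was background-corrected and detrended within each array; raw median intensities and other flags (0 or 1) for detection were deposited with it. The deposited value table holds a linear ratio per probe (column medians 0.070 and 0.069), and how it was made is not stated in the labels. Set against the scanner files for probes whose signal reached 300, each of its columns equals the processed signal of the other lot's array divided by 1 constant (SD of the log ratio 0.000279 and 0.000223, against 0.108 and 0.125 for the same lot). Its scale is thus known, it is not centred by gene, and the direction between lots is not settled.

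Control spots (3671 per array) and outlier spots (56 on array 2, 75 on array 1) were left out, spots of a probe were averaged, and the log2 signal was set relative to the 75th percentile (signal 279.5 on array 2 and 285.6 on array 1). No spot was saturated. Probes were named by RefSeq accession (assembly GRCm38.p6, names only, since the array's annotation names another build); 32994 of 56605 received 1 symbol. A gene's difference averages those of its probes that were well above background on both arrays. Its error treats these probes as independent, so at like signal a gene with 2 probes has a smaller error than a gene with 1. A gene well above background on 1 array has a bound, its level there minus the higher of the other array's detection floor (-4.58 on array 2, -4.62 on array 1) and its own level. For Itga5 and Tgfb2 that own level was the higher, so the measured difference is given and not a bound. A bound leaves out the error of the spots. Summed levels add the linear levels of a list's genes measured on both arrays. The number of arrays limits the precision.

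Values came from Python 3.11.15, pandas 2.3.3 and limma 3.58.1, and the steps were tested on simulated data. The chains and all lists were chosen with earlier results of these data known. Named were all 10 chains, up to 4 genes per list with the largest differences, genes at 2-fold, and genes measured on 1 array; exceptions are marked in the text, and other cell type markers were named for detection. For the alternatives, normexp used the median signal (offset 50), since the files hold no mean spot signal. Under every alternative the error of a gene or pair is that of the main processing.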

Additional observations from a re-analysis of the deposited data

How the results depend on the processing

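All 10 chains stayed measured on both arrays with the scanner's other detection flag and with a filter of 4 times the floor, and 0 of them reached 2-fold under any alternative. Without the value table, the differences of Itgae, Itga4, Itgal, Itgb2, Itgav, Itgb8, Itgb3 and Itga1 kept their sign under all 9 alternatives; Itgb7 and Itgb1 did not, as given above. By its column labels the value table turns every sign, which gives 0.30 for Itgae minus Itgb7, 0.13 for Itga4 minus Itgb7, 0.14 for Itga4 minus Itgb1, 0.30 for Itga1 minus Itgb1, and medians of -0.18 for other integrin chains, -0.41 for ligands and 0.037 for residence genes. Its columns carry the opposite lots. Without a filter on dim probes the median of other integrin chains was 0.068 and that of the TGF-beta list -0.062, over more genes. The ligand median was 0.21 with normexp and 0.31 both with the stricter filter and with the brightest probe. The activation median was -0.037 with spike-in scaling, which lowers every difference by 0.05. Without a filter on dim probes 648 genes were 2-fold higher and 399 lower in array 2, against 184 and 12; with normexp 28 were higher and 0 lower, and with the stricter filter 84 and 1. No paired analysis was possible because each lot has 1 array. Normexp adds an offset of 50 before the log, which by itself draws the differences of dim probes toward 0. How far the offset accounts for the normexp values was not tested. The cause of the other shifts was not tested either, and 1 array per lot limits the precision of every value.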
